A study of Homo sapiens with 3 samples.

Results

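ES7L is the largest expansion segment of the human large ribosomal subunit, and it was defined here as positions 436 to 1311 of 28S rRNA. These 876 positions were taken by rRNA name and position alone, out of 5070 positions of 28S and 7218 positions of 4 rRNAs, and the name was not checked against sequence. The study asked which RNAs METTL5 touches in 293T cells, an established line of human embryonic kidney origin. It used eCLIP, in which protein and RNA are joined with UV light (254 nm, 400 mJ/cm2), the protein is pulled down and its attached RNA is sequenced. The 2 eCLIP libraries were made from stable METTL5-HA lines by pulling down the HA tag, and the 1 Input library came from cells labelled WT. The 3 libraries share the 293T line and the crosslinking. The promoter that drives METTL5-HA and the number of clones were not stated. No pulldown from untagged cells was analysed here, so genotype and pulldown cannot be told apart in any comparison with Input.

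METTL5 is the enzyme that, together with its partner TRMT112, places N6-methyladenosine on 18S rRNA of the small subunit. 28S rRNA is the large RNA of the other subunit, and its expansion segments are stretches that eukaryotes insert between parts conserved in all life. ES7L grows out of helix 25 in domain II, is rich in G and C, and forms long RNA arms on the solvent side of the ribosome, away from the face where both subunits meet. No known METTL5 methylation site lies in it. The 28S of the table has the length of the annotated gene RNA28SN5, 1 of 5 near-identical 28S genes, and depth cannot be credited to any single copy.

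Values are read depths, that is, how many reads cover a given base. Depth summed over the 4 rRNAs was 17574237 and 6930845 in eCLIP replicates 1 and 2 and 42783485 in Input. Depth stayed under 8000 reads everywhere. Input ran along ES7L as level stretches broken by narrow dips. In Input 841 of the 876 positions had 4000 reads or more (96.0%, against 94.7% of the other 28S positions). Input depth on ES7L had a coefficient of variation over positions of 0.139, against 0.396 and 0.607 in eCLIP replicates 1 and 2. In eCLIP replicate 1 depth came to 90% or more of Input depth at 152 positions of ES7L (17.4%, against 16.0% of the other 28S positions). In replicate 2 it did so at 0 (0%, against 1.57%). At position 694, the deepest base of ES7L in replicate 1, the 3 libraries had 6500, 2528 and 6436 reads, so replicate 1 was level with Input there. Whether recorded depth was limited, and what part such a limit has in the ratios given here, was not tested.

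**Figure D1:**
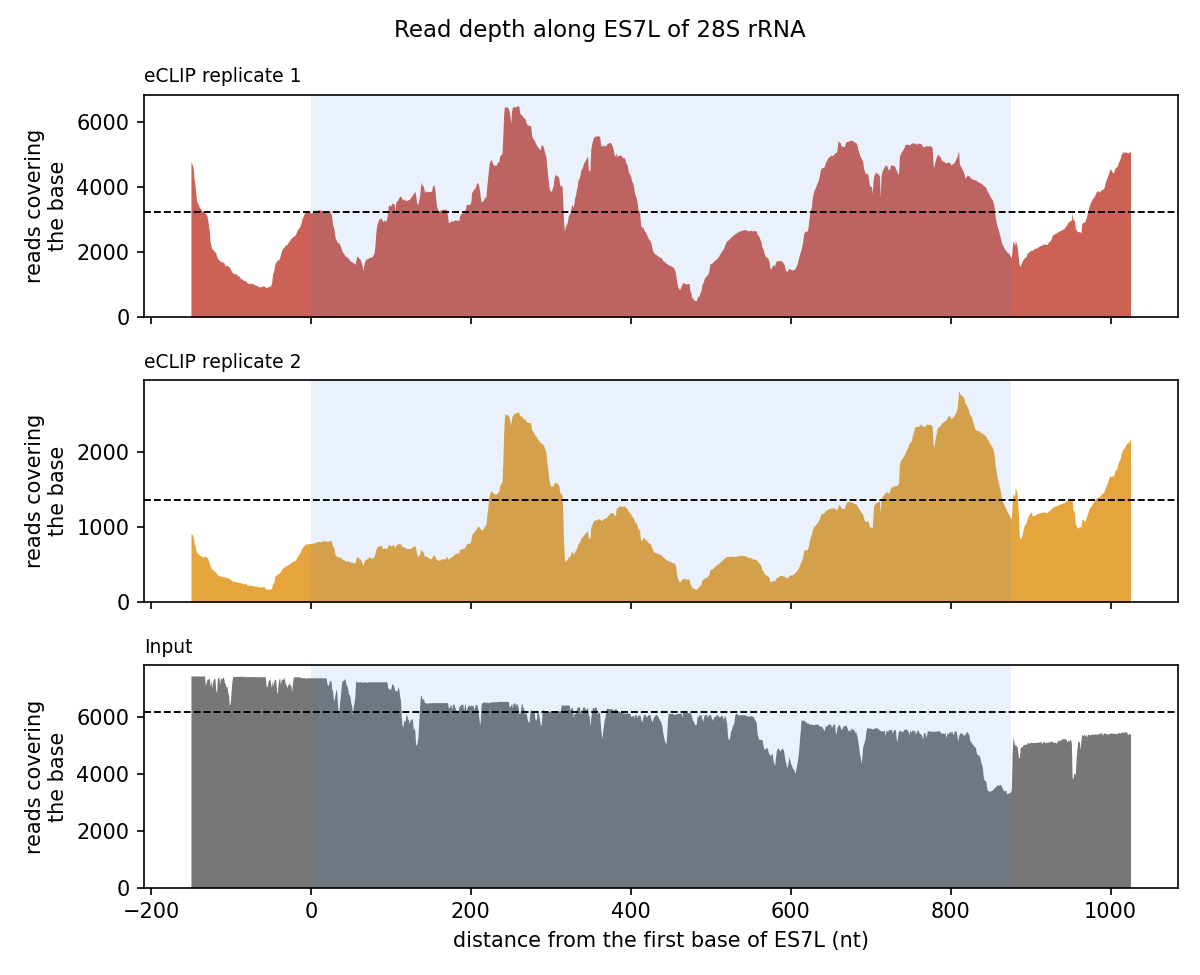
Depth, the number of reads covering each base, is plotted against distance from the first base of ES7L (position 436) for the 3 libraries, with ES7L shaded and the mean of the other 28S positions as a dashed line. The eCLIP libraries show 2 deep stretches, around distances 240 and 800, separated by a trough at 482, while Input steps down gradually; each panel has its own vertical scale.

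The first question was whether ES7L as a whole took more of the METTL5-HA reads on 28S than of the Input reads. It did not move in 1 direction. ES7L held 18.8% and 14.8% of summed 28S depth in eCLIP replicates 1 and 2 and 16.6% in Input, and makes up 17.3% of the length of 28S. Replicate 1 lay above Input and replicate 2 below it. The mean of the eCLIP libraries was 16.8% ± 2.83 (SD, n = 2), and log2 ratios to the Input share were 0.18 (replicate 1) and -0.17 (replicate 2), on average 0.00 ± 0.24 (SD, n = 2). Exact 95% binomial intervals were 18.6% to 19.0%, 14.6% to 15.0% and 16.5% to 16.8% in the same order. They take summed depth divided by 75 nt, the span of a read, as the number of reads, which was 41952, 13204 and 68808 on ES7L. They cover counting error only, and reads copied from 1 molecule would make them too narrow. The share was not tested.

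Mean depth on ES7L was 3592 reads per base in eCLIP replicate 1, against 3242 on the other 28S positions. It was 1131 against 1360 in replicate 2 and 5891 against 6164 in Input. By the median base ES7L was deeper than the rest of 28S in both eCLIP libraries, with 3676.5 against 2853.5 reads in replicate 1 and 858.5 against 853.5 in replicate 2, and shallower in Input, with 6030.5 against 6303. The mean and the median differ because the rest of 28S holds very deep stretches, above all in replicate 2. Positions 2401 to 2800, the 400 nt outside ES7L with most eCLIP depth, took 14.6%, 24.5% and 8.58% of 28S depth in eCLIP replicates 1 and 2 and Input. With these 400 nt left out, an alternative chosen after seeing the data, ES7L held 22.0%, 19.6% and 18.2% of the remaining 28S depth. Both eCLIP libraries then lay above Input. The sign of replicate 2 therefore turns with what ES7L is set against.

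The neighbouring parts of 28S were measured in the same way, as the log2 ratio of mean depth to Input with each library scaled to the 28S positions outside ES7L. On this scale ES7L had 0.21 and -0.20 in replicates 1 and 2. The 435 nt before it, which belong largely to domain I, had -0.24 and -1.01. The 876 nt directly after it, positions 1312 to 2187, had -0.04 and 0.08. ES7L thus lay above the stretch before it in both replicates, while replicate 1 put it above and replicate 2 below the stretch after it. These differences carry no test.

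Within ES7L depth was uneven. The segment was divided into 6 equal blocks of 146 nt, counted from its first base, and depth was set against Input on the same scale. Block 4, positions 874 to 1019, was the shallowest in both eCLIP libraries, at 1770 and 451.9 reads per base against 5752 in Input. Its log2 ratios were -0.77 and -1.49, a mean of -1.13 ± 0.51 (SD, n = 2). Block 6, positions 1166 to 1311 at the 3′ end, had 4376 and 2157 reads against 4896 in Input, the lowest Input depth of the 6 blocks. Its ratios were 0.77 and 0.997, a mean of 0.88 ± 0.16 (SD, n = 2). These blocks lay on opposite sides of the rest of 28S in both replicates, and the step from block 4 to block 6 was larger than the spread between replicates.

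Block 1, positions 436 to 581 at the 5′ end, was covered by 2872, 684.6 and 6837 reads on average in eCLIP replicates 1 and 2 and Input, and ratios of -0.32 and -1.14. It lay below the rest of 28S in both replicates, but its mean of -0.73 had an SD of 0.58. Block 2, positions 582 to 727, had 4523, 1403 and 6358 reads and ratios of 0.44 and 0.00. It stood above the rest of 28S in replicate 1 and level with it in replicate 2. The remaining blocks split between replicates. Block 3, positions 728 to 873, had 4087, 1061 and 6142 reads, with ratios of 0.34 and -0.35. Block 5, positions 1020 to 1165, had 3923, 1026 and 5362 reads, with ratios of 0.48 and -0.21. The split turns with the scale. By median depth both blocks were above the rest of 28S in both replicates, with 0.63 and 0.38 in block 3 and 0.82 and 0.66 in block 5. With positions 2401 to 2800 left out of the scale, block 5 was above in both, with 0.60 and 0.13, and block 3 was split, with 0.47 and -0.02. On the scale given first, in blocks 1 to 5 the ratio was lower in replicate 2 than in replicate 1, and in block 6 it was higher.

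**Figure D2:**
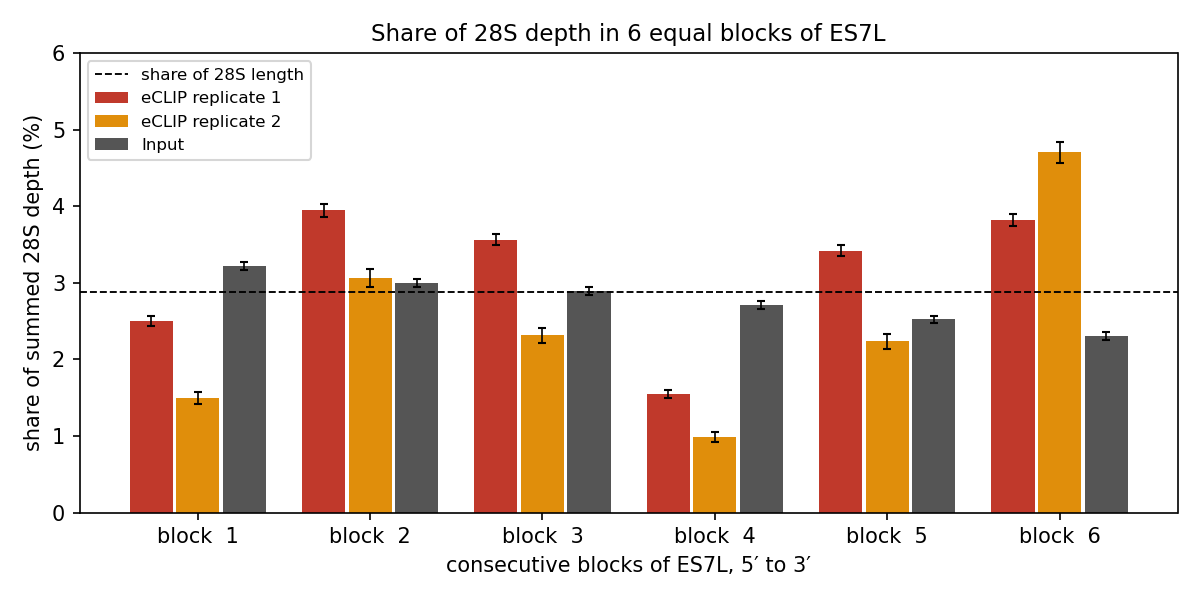
Bars give the share of summed 28S depth in each of the 6 blocks of ES7L for the 3 libraries, with exact 95% binomial intervals as error bars and the share of 28S length as a dashed line. Block 4 lies lowest in both eCLIP libraries, at 1.54% and 0.986% against 2.71% in Input, and block 6 highest in replicate 2, at 4.70% against 2.31% in Input.

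The second question was where along ES7L eCLIP and Input differed by a test. Depth was summed in windows of 50 nt over all 4 rRNAs and tested with edgeR's quasi-likelihood test, with TMM scaling and Benjamini-Hochberg adjustment over all 147 windows. Of the 17 windows that lie wholly inside ES7L, 1 was higher in eCLIP at an adjusted p under 0.05 and 0 were lower. Over all windows 3.40% were called higher and 34.7% lower, most of the lower ones on 18S. Of the 85 other windows of 28S, 4 were called higher and 12 lower. At an unadjusted p under 0.05, 4 windows of ES7L were higher and 1 lower, against 10.2% and 36.7% of all windows. DESeq2's Wald test called 10 higher and 1 lower, where it called 35.4% of all windows higher and 38.1% lower. Of the 85 other windows of 28S it called 42 higher and 18 lower. Over the 17 windows the median of the log2 fold changes was 0.75, against 0.53 over the other 85 windows of 28S and -0.16 over all windows. These medians move with the scaling. Scaled to the 28S positions outside ES7L in place of TMM, the same medians were -0.03, -0.31 and -0.97, and 0 windows of ES7L were called in either direction (edgeR's quasi-likelihood test), with 0 higher and 1 lower at an unadjusted p under 0.05. By that scaling 0% of all windows were called higher and 33.3% lower, and 0.680% and 38.8% at the unadjusted p.

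The called window was 1251 to 1300, 11 nt before the end of ES7L. It had 3816 and 2183 reads per base in the eCLIP replicates and 4296 in Input, the shallowest Input window of ES7L. The log2 fold change was 1.90 (edgeR adjusted p = 0.0232), and the log2 ratios of the 2 replicates, each against Input with TMM scaling, were 1.35 and 2.30. Against the other 28S positions the ratios were 0.76 and 1.20, and the window did not pass (edgeR log2 fold change 0.997, adjusted p = 0.257). It also did not pass with library totals (1.41, edgeR adjusted p = 0.0575). Of the 85 other windows of 28S, 10 had a larger TMM-scaled fold change. The fit has 1 residual degree of freedom, since Input has no replicate, and its p-values rest on the spread of the 2 eCLIP libraries. That spread was pooled over all windows, so the p-value of 1 window does not measure how closely its own replicates match. The SD of the TMM-scaled log2 ratios was 0.67 in the called window and 0.51 in window 1201 to 1250, which did not pass. The dispersion, the spread that the fit assigned to a window, was 0.0822 and 0.0935 in the same order.

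The 3 windows before it had fold changes that did not pass and that were smaller the farther they lay from it. Window 1201 to 1250 was the deepest of ES7L in replicate 2, with 4918, 2417 and 5433 reads in eCLIP replicates 1 and 2 and Input (log2 fold change 1.79, edgeR adjusted p = 0.101). Window 1151 to 1200 had 4984, 1872 and 5480 reads (1.57, edgeR adjusted p = 0.0805), and window 1101 to 1150 had 4793, 1233 and 5425 reads (1.24, edgeR adjusted p = 0.0709). In replicate 1 these 4 windows had nearly equal ratios to Input against the other 28S positions, from 0.75 to 0.79. In replicate 2 the ratio went along them from 0.04 to 1.20. The call depended on where windows begin: with first bases moved by 25 nt, 6 of 16 windows of ES7L were called higher, 4 of them between 1076 and 1275, and 0 lower, against 12.9% and 35.4% of all windows. With windows of 100 nt, 4 of 8 were called higher, among them 1101 to 1200 and 1201 to 1300, and 0 lower, against 17.6% and 33.8% of all windows. At an unadjusted p under 0.05 edgeR had 8 higher and 1 lower of the 16 moved windows of ES7L, against 30 and 54 of all 147. With windows of 100 nt it had 4 higher and 0 lower of 8, against 17 and 27 of all 74. At the adjusted p, more windows were called higher on the other 28S positions too, 13 of 86 and 9 of 43, against 4 of 85 with the windows used above.

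Window 651 to 700 was the deepest of ES7L in replicate 1, with 5421, 1899 and 6472 reads in eCLIP replicates 1 and 2 and Input. Its log2 fold change of 1.39 did not pass (edgeR adjusted p = 0.154), nor did the 1.45 of the next window, 701 to 750 (edgeR adjusted p = 0.128). Window 901 to 950 was the shallowest of ES7L in both eCLIP libraries, with 1206 and 342.0 reads, while Input had 6018 reads there, more than its mean over ES7L. Its log2 fold change was -0.83 with TMM (edgeR adjusted p = 0.0935) and -1.65 against the other 28S positions (edgeR adjusted p = 0.0995). DESeq2's test called it lower (-0.66, adjusted p = 6.59e-05). With windows of 25 nt, edgeR called 901 to 925 lower (-1.33, adjusted p = 0.0110), the only lower call among 34 windows of ES7L of that size, and 6 higher, against 36.6% and 7.59% of all windows. Of the 169 other 28S windows of that size, 27 were called lower and 16 higher. Input was deepest in window 501 to 550, with 7081 reads against 2800 and 693.8 in eCLIP.

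**Figure D3:**
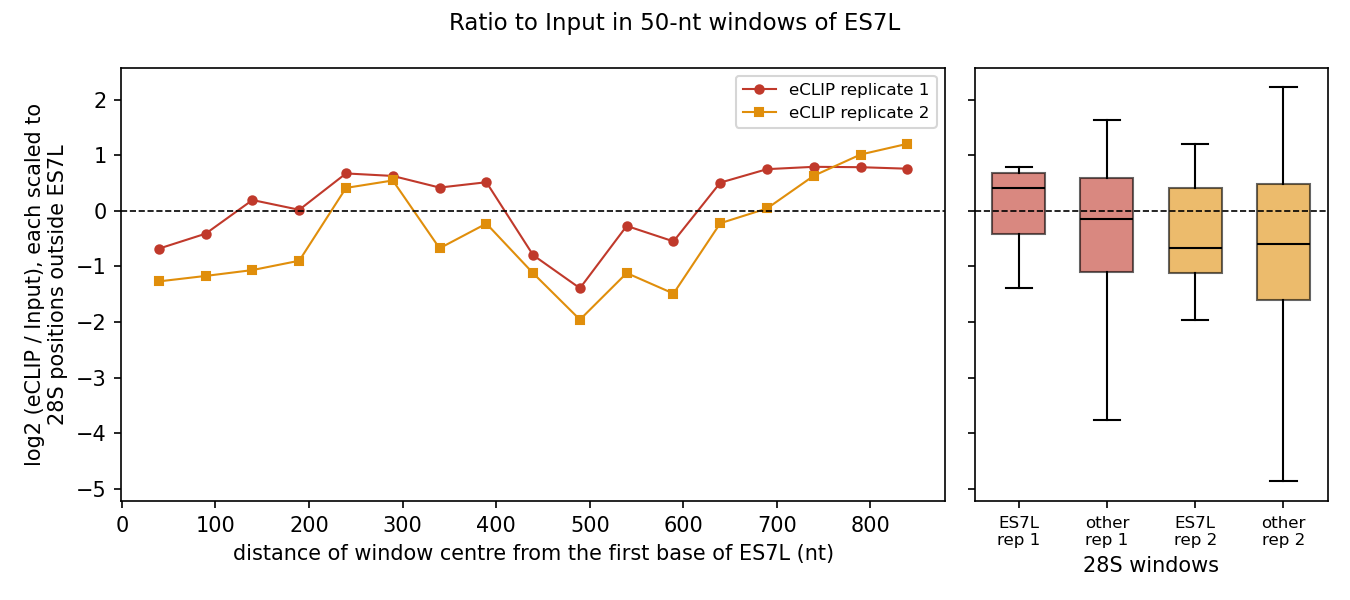
Left, the log2 ratio of eCLIP to Input in the 17 windows of 50 nt inside ES7L, each library scaled to the 28S positions outside ES7L, against the distance of the window centre from the first base of ES7L. Right, boxes give the median and quartiles, and whiskers the full range, of the same ratio in ES7L and in the other 85 windows of 28S. ES7L windows span -1.39 to 0.79 in replicate 1 and -1.96 to 1.20 in replicate 2, inside the range of the other windows.

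Base by base, both eCLIP libraries stood on the same side of the rest of 28S at most positions. Relative to Input and to the other 28S positions, 296 of the 876 bases were above 0 in both replicates (33.8%, against 32.7% of the other 28S bases). Another 367 were below 0 in both (41.9%, against 50.2%). At the remaining 213 bases the replicates were split (24.3%, against 17.1% of the other 28S bases). In each case replicate 1 was above and replicate 2 below. No base of ES7L showed the opposite split. Of the other 28S bases, 595 were split in the same direction and 123 in the opposite one. With positions 2401 to 2800 left out of the scale, 391 bases were above 0 in both replicates, 327 below in both and 158 split.

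There were 6 runs of at least 20 adjacent bases with the same sign in both replicates, 3 below and 3 above, and they left parts of ES7L uncovered. This description was made after the data were seen and has no test. Bases 436 to 545 were below, with mean log2 ratios of -0.58 and -1.22, and so were bases 594 to 629, with -0.10 and -1.18. Bases 668 to 750 were above, with 0.69 and 0.56. The longest run, bases 848 to 1058, was below, with -0.77 and -1.43. On average 1848 and 488.4 eCLIP reads covered a base there, against 5622 Input reads. Bases 1104 to 1127 were above, with 0.91 and 0.14, although replicate 1 and Input had nearly the same depth there, 5231 and 5287 reads. The last run, bases 1149 to 1311, was above, with 0.73 and 0.92, and reached the end of ES7L.

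The trough within the longest run had its lowest base at the same position in both eCLIP libraries. At position 918 replicate 1 had 512 reads, replicate 2 had 173 and Input had 5748. These were the lowest depths of ES7L in either eCLIP library, 8.91% and 3.01% of Input depth. The minimum of Input lay elsewhere, at position 1307 with 3293 reads, where the eCLIP libraries had 1994 and 1190. At position 1282, near that end, eCLIP depth came closest to or passed that of Input, at 113% in replicate 1 and 63.5% in replicate 2.

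The third question was whether depth changed gradually or in steps, since reads that share an end leave an abrupt rise, followed by an abrupt fall 1 read length later. Rises of depth inside ES7L were best matched by falls 75 nt later in all 3 libraries, with correlations across positions of 0.690, 0.789 and 0.639 in eCLIP replicates 1 and 2 and Input. No other distance between 20 and 200 nt gave a higher correlation. The sharpest feature common to both eCLIP libraries was a rise over the 3 adjacent bases 676 to 678. Depth went from 5039 to 6475 reads in replicate 1 and from 1605 to 2446 in replicate 2, while Input went from 6539 to 6538. The rise equals 3.42% and 6.37% of all ES7L reads of the 2 eCLIP libraries. At bases 751 to 753, depth fell by 1402 reads in replicate 1, by 838 in replicate 2 and by 3 in Input. The fall nearly equals the rise in each eCLIP library, as reads of 75 nt that begin at 3 adjacent bases would give.

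The largest single-base rise of replicate 2 was part of this feature, 370 reads at position 677, where replicate 1 gained 631 and Input lost 1. The median of all rises in ES7L was 11 reads in replicate 2, 32 in replicate 1 and 34 in Input. The stretch between the rise and the fall, bases 678 to 750, was covered on average by 5422 and 2134 eCLIP reads against 6225 in Input, and log2 ratios of 0.73 and 0.64 against the other 28S positions. With the rise taken out of the eCLIP and Input depths, an alternative chosen after seeing the data, these ratios were 0.28 and -0.09. In replicate 2 the stretch then no longer stood above the rest of 28S. The rise was picked in eCLIP and is absent from Input, and no like feature was taken out elsewhere. The ratios could therefore only fall, and these values give the size of the rise, not a test of the stretch.

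Other abrupt steps lay in the 3′ part of ES7L. The largest rise of replicate 1 was at position 1149, where it gained 652 reads, replicate 2 gained 164 and Input lost 24. One base earlier, at 1148, the same libraries lost 629, 144 and 19 reads, so depth just before and just after this pair was nearly equal. In the eCLIP libraries the pair is thus a dip of 1 base. It had no matching fall at 1224, 75 nt after the rise, where replicate 1 lost 111 reads, replicate 2 gained 10 and Input lost 33. At position 1172 replicate 1 gained 522 reads, replicate 2 gained 239 and Input gained 50. At 1247, 75 nt later, replicate 1 lost 399 reads, replicate 2 lost only 19 and Input gained 67. At position 1139 they gained 377, 195 and 47 reads, and 75 nt later, at 1214, they lost 469, 226 and 5. At position 786 replicate 1 gained 631 reads, replicate 2 gained 135 and Input gained 314. This step was thus present in Input too. At 861, 75 nt later, the libraries lost 70, 18 and 158 reads, less than they had gained. Of the 5 largest rises in each eCLIP library, 3 positions (676, 677 and 1172) were common to both, and of the 5 largest falls 4 were (751, 752, 1148 and 1214). The remaining fall among the top 5 was at 783 in replicate 1, where the libraries lost 473, 107 and 226 reads, and at 753 in replicate 2. At all positions of these top 5 rises and falls except 783 and 786, Input changed by at most 50 reads.

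Input had abrupt steps of its own. Its largest rise was 582 reads at position 649 and its largest fall 576 reads at position 549. These 2 positions differ from those of the largest rise and fall of either eCLIP library. Lists of the 5 largest steps were made for the eCLIP libraries only, so further steps of Input were not compared. Rises in Input were best matched by falls 75 nt later, as in eCLIP, though single steps need not have such a partner.

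**Figure D4:**
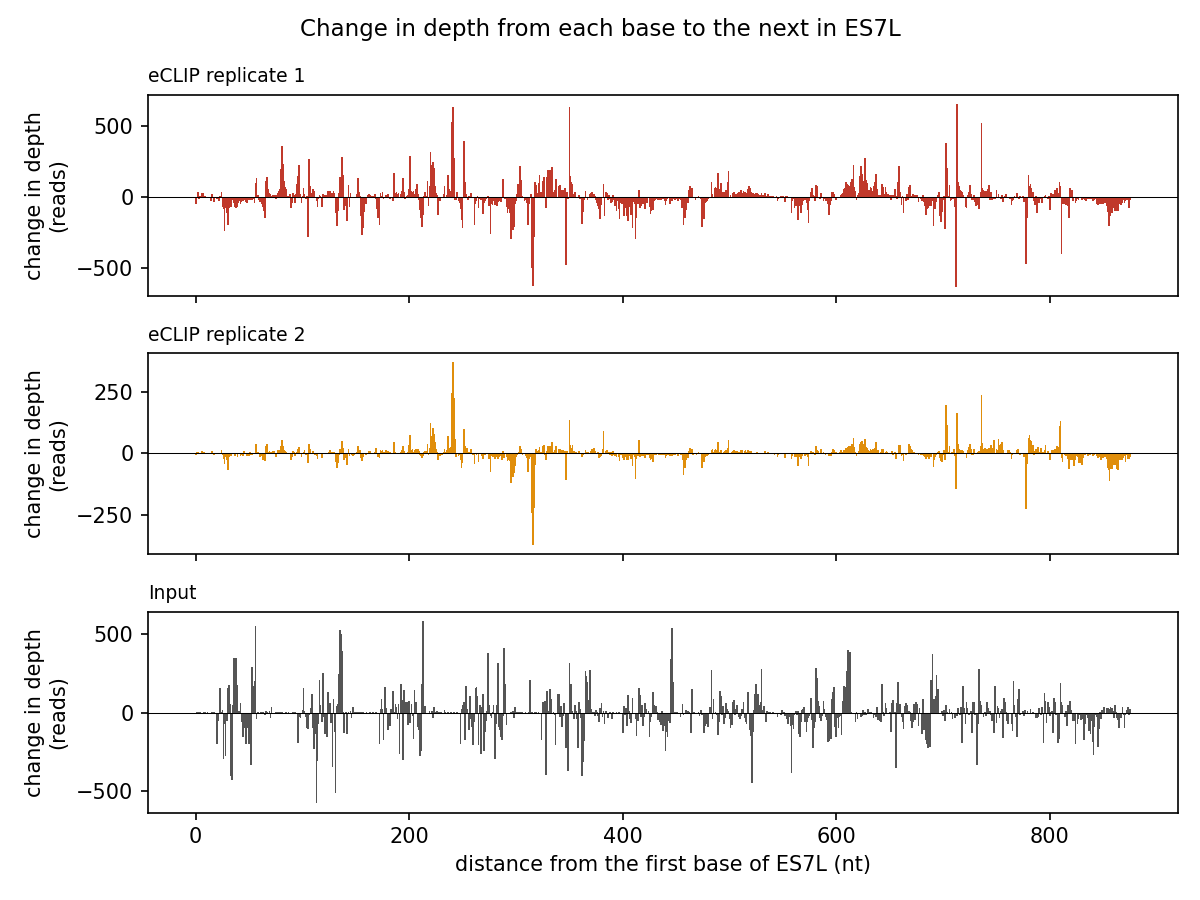
The change in depth from the base before, in reads, is plotted against distance from the first base of ES7L for the 3 libraries, each with its own vertical scale. In both eCLIP libraries a cluster of rises at distances 240 to 242 is followed by a cluster of falls at 315 to 317, and Input is flat at both places.

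At the edges of ES7L the outermost bases were set beside the bases next to them. Depth at positions 435 and 436 was 3242 and 3193 reads in replicate 1, 785 and 778 in replicate 2 and 7371 and 7366 in Input. At positions 1311 and 1312 it was 1869 and 1826, 1124 and 1112, and 3353 and 3468. Depth thus changed little across both boundaries, the most in Input at position 1312, where it rose by 115 reads while both eCLIP libraries fell. Just beyond the 3′ edge, at position 1322, lies the adenosine that RRP8 (also called NML) methylates to N1-methyladenosine, a modification known to stop reverse transcriptase. From that base to the next, Input rose by 354 reads, from 4549 to 4903, while the eCLIP libraries changed from 1584 to 1578 and from 859 to 845. At 1322 itself the eCLIP libraries fell by 153 and 243 reads, and Input fell by 10.

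The eCLIP profiles along ES7L were alike, and unlike that of Input. Across the 876 positions, log2 depth of both eCLIP replicates gave a Pearson's r of 0.849 and a Spearman's rho of 0.853. With Input, replicate 1 had r = 0.05 and replicate 2 r = -0.19. Over the 4194 other 28S positions the same correlations were 0.931, 0.352 and 0.251. Neighbouring positions share reads and are not independent, so these values describe the profiles and carry no p-value. The labels do not state that both eCLIP libraries are of separate cultures, so the spread that the p-values rest on may be technical. No batch was named in the labels.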

How the data were processed

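Per the labels' protocols, crosslinked 293T lysates were treated with RNase I, pulled down with anti-HA beads and ligated to adapters that carry a random tag. How duplicates were treated was not stated. STAR and hg19 are listed in the submitters' processing notes with no version and no role. The authors deposited unscaled counts per rRNA position, per the file headers, which were read as depth. The columns IP1 and IP2 were taken as eCLIP replicates 1 and 2. All value columns were used.

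Rises and falls of depth were matched over 20 to 200 nt to find the read span, 75 nt. Exact (Clopper-Pearson) 95% intervals used depth divided by 75. Windows of 50 nt from position 1 of each rRNA were tested with edgeR 4.0.16 (R 4.3.3), filterByExpr, TMM and Benjamini-Hochberg adjustment at 0.05, on all 3 libraries. The estimated prior degrees of freedom were infinite. A read is counted at each base it covers, and neighbouring windows share reads. Base ratios used a pseudocount of 1. DESeq2 1.42.0, other scalings and other windows were alternatives.

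Regions named were ES7L, its 6 blocks, its called windows, its deepest and shallowest window in each library, its 5 largest rises and falls in each eCLIP library, its neighbours and the RRP8 site, placed 11 nt after its last base. Windows 701 to 750 and 1101 to 1200, the windows at the edges of ES7L, the runs and positions 2401 to 2800 were chosen after their values were seen. All members and lists were chosen with earlier results of these data known. Gene names and lengths are those of RefSeq on GRCh38, and neither genomic coordinates nor rRNA sequence were used here.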

Additional observations from a re-analysis of the deposited data

How the results depend on the processing

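The log2 ratio of the ES7L share of 28S depth, 0.00, was 0.41 as a share of all 4 rRNAs, 0.25 by median depth and 0.19 without positions 2401 to 2800. With 1 eCLIP replicate left out it was that of the other, -0.17 or 0.18. Over the positions with Input under 4000 (35 in ES7L, 257 on 28S) it was 0.30, with 0.05 and 0.55 in replicates 1 and 2. Those 35 positions all lie in block 6, so this value does not describe ES7L as a whole. The number of ES7L windows called higher, 1 of 17, was 0 with library totals, 0 with the 28S positions outside ES7L, 10 by the DESeq2 Wald test (35.4% of all windows), 6 of 34 in 25-nt windows (7.59% of all), 4 of 8 in 100-nt windows (17.6% of all) and 6 of 16 in windows moved by 25 nt (12.9% of all). The number called lower, 0, was 1 by the DESeq2 Wald test and 1 in 25-nt windows. On the other 28S windows the DESeq2 Wald test called 42 of 85 higher and 18 lower. In 25-nt windows edgeR called 16 of 169 higher there and 27 lower. The number of windows tested also differed, 290 at 25 nt and 74 at 100 nt against 147, and the cause of these changes was not tested. The count filter removed no window. Of 6 alternatives for window 1251 to 1300, 4 kept the call and 2 kept the direction only. Among the 4, the run without the count filter repeats the main test and could not differ from it. The DESeq2 Wald test and edgeR with DESeq2's size factors share their scaling. The call was lost with library totals and with the 28S positions outside ES7L. Of 18 alternatives for the blocks, 12 moved the mean by less than the SD between replicates, which is wider where the 2 replicates differ more. In block 6 the mean of 0.88 rose by more than its SD of 0.16 under all 3. It was 1.28 scaled to all 4 rRNAs, 1.29 by median depth and 1.11 without positions 2401 to 2800. The mean of block 3, -0.01, was above 0 under all 3, at 0.39 as a share of all 4 rRNAs, 0.51 by median depth and 0.22 without positions 2401 to 2800. Scaled to all 4 rRNAs, both replicates were above 0 in block 3 (0.70 and 0.09) and block 5 (0.83 and 0.24), and replicate 1 turned to 0.03 in block 1. Over all 147 windows the median log2 fold change by edgeR was -0.16 with TMM, -0.58 with library totals, 0.01 with DESeq2's size factors and -0.38 with 5S. No ES7L window had a mean Input depth under 4000, so the test on such windows gave no value, and without 1 eCLIP replicate the test has no residual degrees of freedom. No paired analysis was possible because only 1 Input library was analysed. If recorded depth was limited, ratios where replicate 1 came close to Input have no known bound.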
